A study of Homo sapiens with 6 samples.

Results

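Collagens are secreted or membrane-bound proteins whose chains wind into a triple helix. The collagen genes were taken as every row of the count table whose symbol has the form COL, a number, the letter A and a number, which gave 44 of the 50883 genes listed. RNA was sequenced from D283, an established medulloblastoma cell line. The OTX2 knockout group held 3 cultures infected with a virus that expressed GFP and a guide RNA aimed at OTX2, which encodes a homeodomain factor of brain development and of Group 3 and Group 4 medulloblastoma. The control group held 3 cultures given the same kind of lentivirus with a guide that has no target, and all 6 were harvested on day 7. Each replicate is its own infection of the same line, and the p-values therefore measure the spread between infections. How many guides were used, where the nuclease came from and what share of cells was edited is not given in the sources used here.

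Fibrillar collagens form the striated fibrils of connective tissue, and type IV collagens form the network of basement membranes. The fibril-associated collagens with interrupted helices (FACITs) sit on fibril surfaces, while transmembrane collagens stay anchored in the cell that makes them. In the brain most fibrillar collagen is made by meningeal and perivascular cells, type IV collagen lies in the basement membranes of vessels and of the pial surface, and neurons make a few unusual members such as types XIX and XXV.

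Counts per library summed to 61154088, 60561438 and 62166870 in OTX2 knockout cultures and to 56315049, 61662466 and 54540645 in control cultures. Levels are given as CPM, counts scaled to a common library size with edgeR's TMM factors, and 3 counts equalled 0.0471 to 0.0485 CPM in knockout libraries and 0.0508 to 0.0563 CPM in control libraries. OTX2 itself had 765, 824 and 887 CPM in OTX2 knockout libraries, against 1002, 979 and 909 CPM in control libraries. The ranges did not overlap, and the fitted log2 fold change was -0.22 ± 0.06 (SE), with an adjusted p of 0.00646 (edgeR's quasi-likelihood test, Benjamini-Hochberg). An edited gene can still be transcribed, so its RNA checks the labels only weakly. Markers of Group 3 medulloblastoma were read in all libraries: 1 of the 9 (MAB21L2) rose and 8, OTX2 and MYC among them, fell. At the same threshold, an adjusted p under 0.05, 21.2% of all tested genes rose and 18.5% fell. The share of counts from 37 mitochondrial genes was 0.531% to 0.601% in OTX2 knockout libraries and 0.764%, 0.449% and 0.440% in control libraries, where replicate 1 stood apart. The collagen calls below are given with all 6 libraries, and without control replicate 1 the same 22 genes were called, 13 higher and 9 lower.

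Collagen genes changed in both directions after OTX2 targeting. Of the 44, 30 passed the filter on low counts and were tested, and 14 were not. A gene was called when its adjusted p was under 0.05, a threshold that 39.7% of all 18420 tested genes passed, 21.2% higher and 18.5% lower in OTX2 knockout. Among the 30 tested collagens 22 were called, or 73.3%, with 13 higher (43.3%) and 9 lower (30%). With library totals as the only scaling, rises made up 71.9% of the calls over all genes, against 53.4% with TMM, and 63.6% of the collagen calls, against 59.1%. The 13 that rose were COL1A1, COL1A2, COL4A5, COL4A6, COL5A1, COL5A2, COL6A1, COL7A1, COL12A1, COL14A1, COL16A1, COL22A1 and COL23A1. The 9 that fell were COL2A1, COL4A1, COL4A3, COL4A4, COL9A1, COL11A1, COL19A1, COL25A1 and COL27A1. Changes past 2-fold were found for 8 risers and 2 fallers, where 6.04% of all tested genes rose and 0.782% fell by that much. The knockout range lay wholly above the control range for 15 tested collagens (26.2% of all tested genes) and wholly below it for 9 (23% of all tested genes). The median log2 fold change was 0.40 over the tested collagens and 0.01 over all tested genes.

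Some of these counts were shaped by the filter. COL6A1 and COL22A1 reached its level of 0.164 CPM in no control library and COL6A3 in 2 of the 3, so these 3 genes passed only through the OTX2 knockout libraries. A test against a change of 1.5-fold (edgeR's glmTreat), passed by 6.55% of all tested genes, left 9 collagens higher and 2 lower. Those higher were COL1A1, COL1A2, COL4A5, COL4A6, COL5A1, COL5A2, COL12A1, COL16A1 and COL22A1, and those lower were COL4A3 and COL4A4. Because the libraries come from bulk cultures, fewer cells of one kind and less RNA per cell cannot be told apart.

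**Figure D1:**
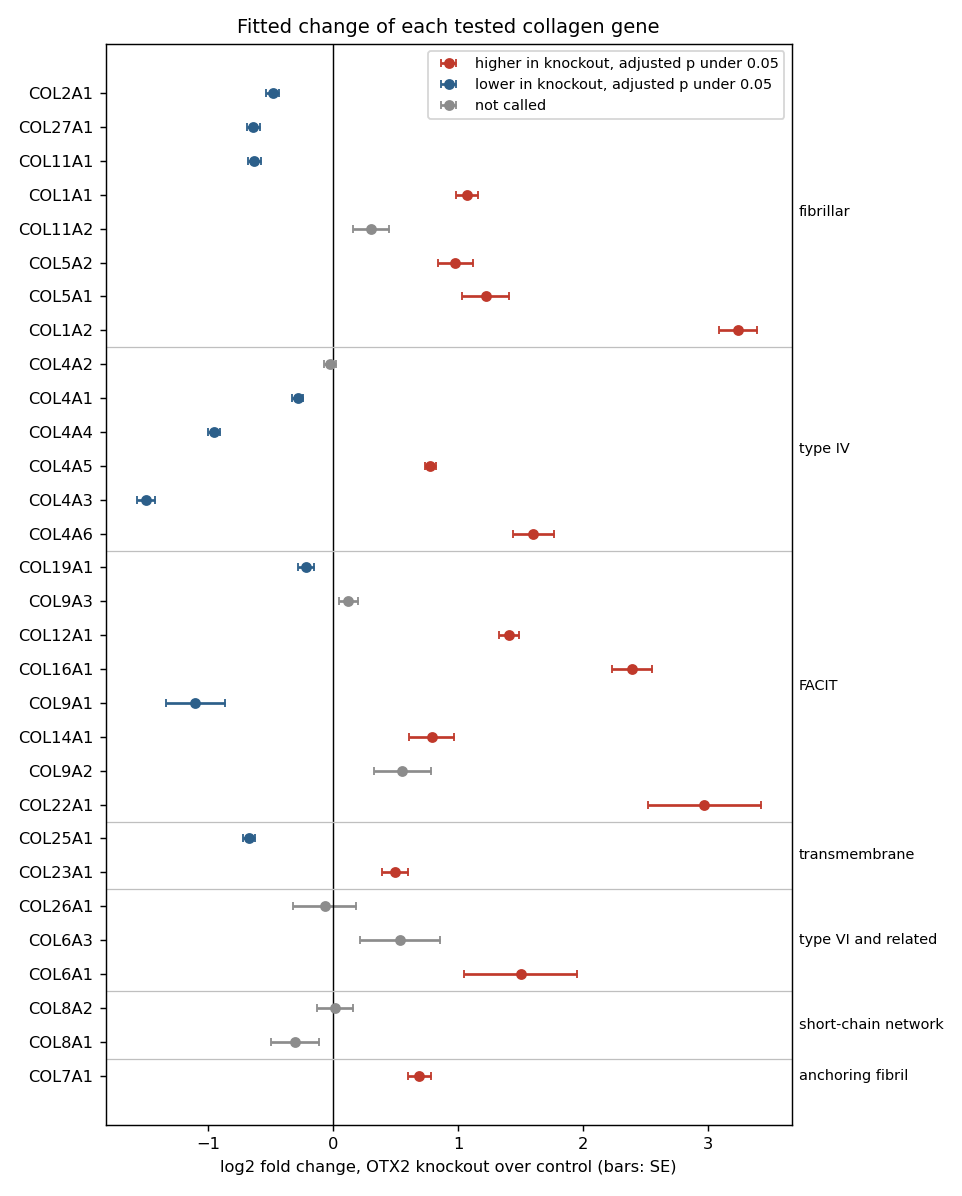
Fitted log2 fold change of each of the 30 tested collagen genes, OTX2 knockout over control, with bars for the SE, grouped by collagen family. Points right of the line at 0 are higher in knockout, and the 13 called higher reach 3.24 (COL1A2) while the 9 called lower reach -1.50 (COL4A3).

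Although more members rose than fell, the collagen genes together took a smaller part of the OTX2 knockout libraries. Their summed level was 1437, 1452 and 1464 CPM in OTX2 knockout libraries and 1860, 1838 and 1836 CPM in control libraries. Without COL25A1, the largest member, the sum averaged 1067 ± 8.18 CPM in knockout and 1232.5 ± 15.6 CPM in control libraries (SD, n = 3 each). The groups did not overlap in either sum, which was described and not tested. Direction went with level in this set: among the 12 genes averaging at least 10 CPM over all 6 libraries, 2 rose and 8 fell, and the median log2 fold change was -0.38. Of the 10 genes between 1 and 10 CPM, 7 rose and 0 fell, and the other 3 were not called, with a median of 1.03. Of the 8 genes under 1 CPM, 4 rose and 1 fell, with a median of 0.67. That class includes COL6A1, COL6A3 and COL22A1, which passed the filter only through the knockout libraries, and COL6A1 and COL22A1 were among its 4 rises. Its count and median therefore say little about direction. The class edges were chosen after the values were seen. All tested genes also leaned the same way, with 18.1% higher and 28.4% lower at 10 CPM or more (median log2 fold change -0.04) and 30.4% higher and 11.7% lower between 1 and 10 CPM (median 0.10). Under 1 CPM, 19.2% of all tested genes were higher and 3.84% lower (median 0.17).

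**Figure D2:**
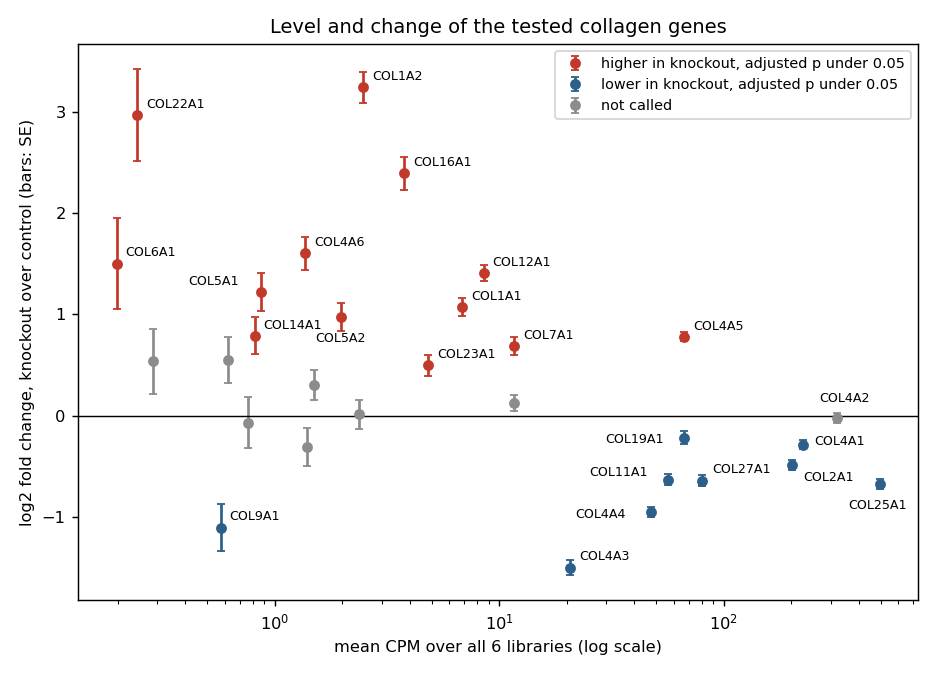
Mean level of each tested collagen over all 6 libraries (x axis, CPM, log scale) against its fitted log2 fold change, OTX2 knockout over control (y axis, bars for the SE), coloured by call. The most abundant genes lie mainly below 0 and those between 1 and 10 CPM lie mainly above it, where 7 of 10 were called higher and 0 lower.

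Levels of different genes are compared per kilobase of annotated exon (CPM/kb). On that scale COL25A1, a transmembrane collagen of neurons that accumulates in amyloid plaques, came first in both groups, with 44.0 ± 1.96 CPM/kb in OTX2 knockout and 70.0 ± 3.34 CPM/kb in control cultures (SD, n = 3 each). COL2A1, the chain of cartilage and vitreous fibrils, came next, with 25.3 ± 0.475 CPM/kb in knockout and 35.4 ± 2.16 CPM/kb in control cultures. The next places were held by COL4A2 (16.4 ± 0.572 CPM/kb) and COL4A1 (13.8 ± 0.0791 CPM/kb) in OTX2 knockout cultures, whose ranges were apart. In control cultures COL4A1 had 16.8 ± 0.396 and COL4A2 16.7 ± 0.594 CPM/kb, and those ranges overlapped. COL1A2 was at rank 18 of the 30 tested genes in OTX2 knockout and at rank 27 in control cultures.

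**Figure D3:**
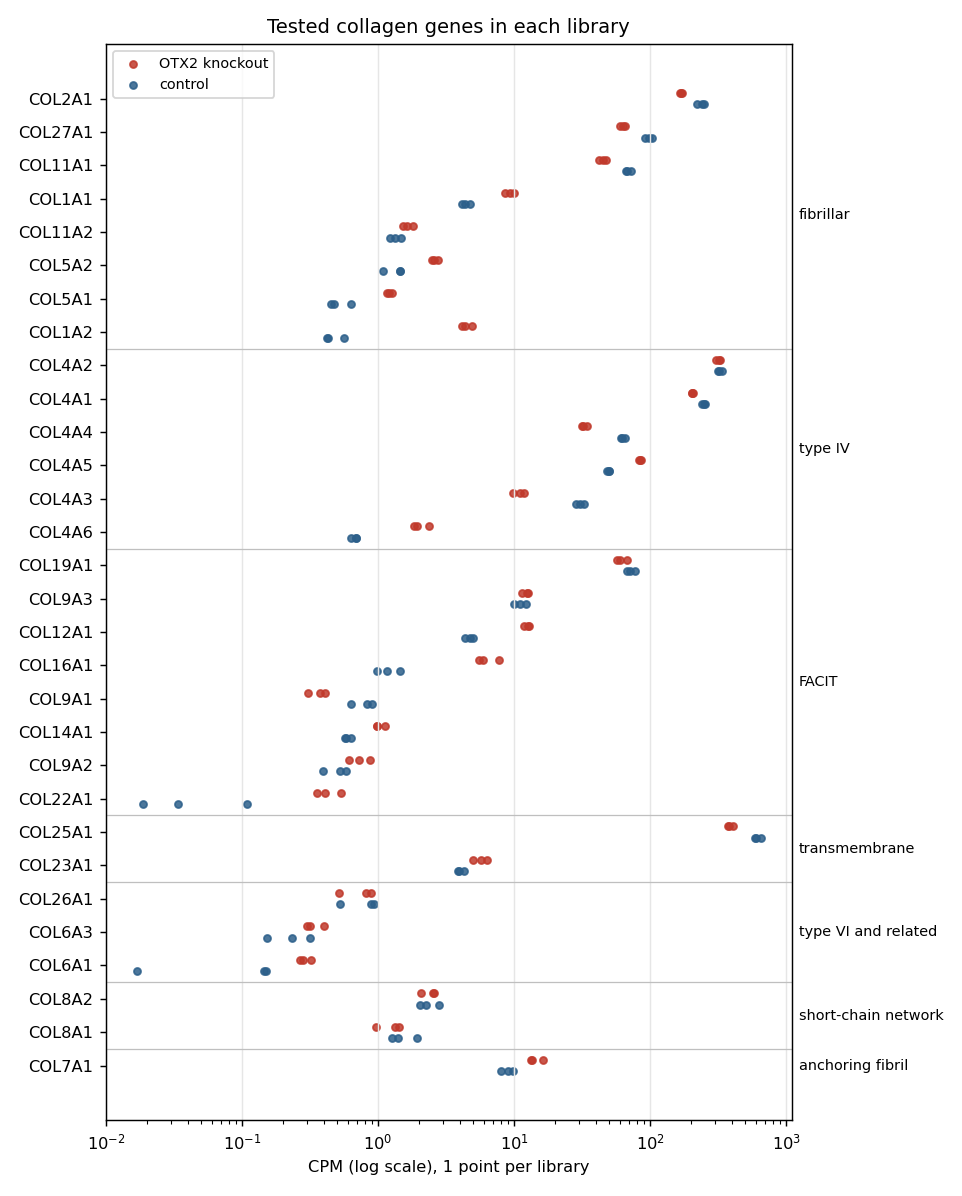
Level of each of the 30 tested collagen genes in every library (CPM, not scaled by length, log axis), 1 point per library, with OTX2 knockout in red above control in blue and genes grouped by family. The points of the groups are far apart for COL1A2, COL16A1 and COL4A3.

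Type IV chains divided by gene pair. The 6 genes lie head to head in 3 pairs, COL4A1 with COL4A2 on chromosome 13, COL4A3 with COL4A4 on chromosome 2 and COL4A5 with COL4A6 on the X chromosome, and each pair is transcribed outwards from a shared promoter region. COL4A1 and COL4A2 encode the chains of nearly all basement membranes. COL4A3, COL4A4 and COL4A5 encode the chains that assemble together in the glomerular, lung, cochlear and ocular membranes and are mutated in Alport syndrome, and COL4A6 joins COL4A5 in smooth muscle and epithelial membranes. The stretches between the start sites are shown because the pairs moved differently. They are RefSeq sequence of GRCh38.p14, read 5′ to 3′ on the plus strand, with capitals for the CCAAT box, searched as those letters on either strand, and for the GC box, searched as GGGCGG on either strand. The first is chr2:227164374-227164623, 250 of the 418 bases between the COL4A4 and COL4A3 start sites, the second is chrX:108439588-108439837, 250 of the 379 bases between COL4A6 and COL4A5, and the third is chr13:110307158-110307283, all 126 bases between COL4A1 and COL4A2. These distances are between RefSeq start sites. The outermost starts of the GENCODE gene models, used for all gene positions, differ: those of COL4A3 and COL4A4 lie 112 bases apart and those of COL4A5 and COL4A6 347, and those of COL4A1 and COL4A2 overlap by 1421 bases. On those models the first stretch runs into COL4A4 and COL4A3 at its ends, the second lies between its genes, and the third lies inside COL4A2 and partly inside COL4A1.
COL4A4 to COL4A3: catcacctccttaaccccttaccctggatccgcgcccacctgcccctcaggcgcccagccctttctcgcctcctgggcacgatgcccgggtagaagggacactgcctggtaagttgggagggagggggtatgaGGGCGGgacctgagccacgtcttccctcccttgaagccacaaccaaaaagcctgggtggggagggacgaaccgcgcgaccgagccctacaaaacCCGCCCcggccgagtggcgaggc
COL4A6 to COL4A5: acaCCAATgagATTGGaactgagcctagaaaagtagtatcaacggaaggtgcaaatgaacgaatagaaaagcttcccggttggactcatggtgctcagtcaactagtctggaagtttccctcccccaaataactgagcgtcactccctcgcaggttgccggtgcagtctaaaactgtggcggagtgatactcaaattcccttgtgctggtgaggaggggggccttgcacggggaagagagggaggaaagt
COL4A1 to COL4A2: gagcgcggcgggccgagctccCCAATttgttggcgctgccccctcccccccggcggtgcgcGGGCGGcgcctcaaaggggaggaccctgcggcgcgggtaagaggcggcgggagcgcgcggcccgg
G and C make up 66.4% of the first stretch, 51.2% of the second and 80.2% of the third. The first holds 2 GC boxes and 0 CCAAT boxes, the second 0 GC boxes and 2 CCAAT boxes, and the third 1 of each. These matches are descriptions of the letters and do not mark bound sites.

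Both genes of the chromosome 2 pair fell. COL4A3 (GRCh38 chromosome 2, 227164565 to 227314792, plus strand) had 9.77, 10.98 and 11.7 CPM in OTX2 knockout libraries, against 32.5, 30.6 and 28.5 CPM in control libraries. Every knockout library lay below every control, and the level was 2.82-fold lower in knockout, or -1.50 ± 0.07 on the log2 scale (SE; edgeR adjusted p = 4.96e-10). COL4A4 (chromosome 2, 227002711 to 227164453, minus strand) had 31.8, 34.1 and 31.5 CPM in knockout libraries and 64.9, 62.1 and 61.4 CPM in control libraries. Those groups were apart too, and the level was 1.93-fold lower in knockout (log2 fold change -0.95 ± 0.05, SE; edgeR adjusted p = 1.24e-09).

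Both genes of the X chromosome pair rose. COL4A5 (X chromosome, 108439844 to 108697545, plus strand) had 85.9, 82.5 and 83.9 CPM in OTX2 knockout libraries and 47.8, 49.4 and 49.9 CPM in control libraries. COL4A6 (X chromosome, 108155607 to 108439497, minus strand) had 1.95, 2.36 and 1.85 CPM in knockout libraries and 0.632, 0.694 and 0.694 CPM in control libraries. In neither gene did the groups overlap, and the folds were 1.72 for COL4A5 (log2 0.78 ± 0.04, SE; edgeR adjusted p = 3.62e-09) and 3.05 for COL4A6 (log2 1.60 ± 0.16, SE; edgeR adjusted p = 1.87e-06). The pair stayed unequal: COL4A5 exceeded COL4A6 by 32.5 ± 4.47 times per kilobase in knockout and 57.0 ± 1.91 times in control cultures (SD, n = 3 each).

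On chromosome 13 one gene fell and its partner was not called. COL4A1 (110148963 to 110307233, minus strand) had 204, 205 and 203 CPM in OTX2 knockout libraries and 242, 249 and 254 CPM in control libraries. Its groups were apart by a modest margin, with the knockout level 1.22-fold lower (log2 fold change -0.28 ± 0.04, SE; edgeR adjusted p = 0.000102). COL4A2 (110305812 to 110513209, plus strand) had 319.7, 326 and 305 CPM in knockout libraries and 312, 319 and 334 CPM in control libraries. Its groups overlapped, and the log2 fold change was -0.02 ± 0.05 (SE; edgeR adjusted p = 0.738), with a sign that changed between scalings. The COL4A2 to COL4A1 ratio per kilobase was 1.19 ± 0.0346 in knockout and 0.991 ± 0.0146 in control cultures (SD, n = 3 each).

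The make-up of type IV RNA differed between the groups. COL4A3 and COL4A4 together gave 10.5 ± 0.402% of the type IV level per kilobase in OTX2 knockout and 20.3 ± 1.13% in control cultures. COL4A5 and COL4A6 gave 17.4 ± 0.436% in knockout and 8.89 ± 0.103% in control cultures (SD, n = 3 each). Within the chains that assemble together, the COL4A5 to COL4A3 ratio was 6.01 ± 0.667 in knockout and 1.24 ± 0.108 in control cultures. No library of one group reached the range of the other in any of these 3 quantities, which were described without a test.

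**Figure D4:**
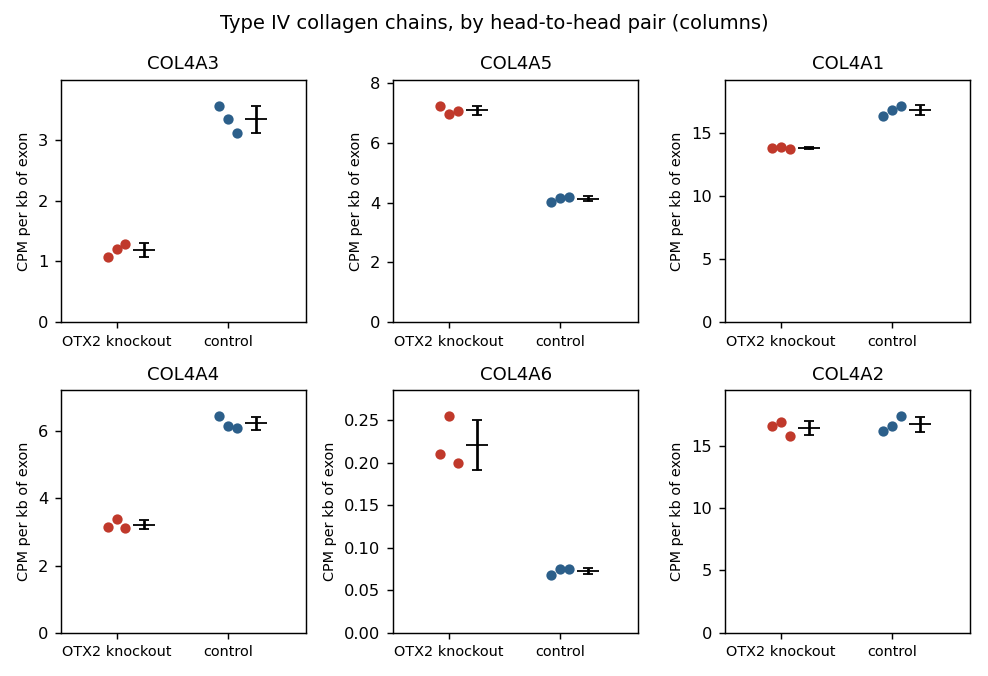
Level of the 6 type IV chains in every library (CPM per kilobase of exon), with the mean and SD of each group beside the points and OTX2 knockout left of control. Each column is a head-to-head gene pair: both genes fell in the first column (COL4A3, COL4A4), both rose in the second (COL4A5, COL4A6), and in the third COL4A1 fell while COL4A2 overlapped between groups.

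Fibrillar collagens divided by type. Of the 11 genes 8 were tested, 4 rose and 3 fell, where 21.2% of all tested genes rose and 18.5% fell. The chains of types I and V rose, and those of types II and XXVII fell, as did COL11A1 of type XI. COL1A2 (chromosome 7, 94394561 to 94431232, plus strand), a chain of the type I fibrils of skin, tendon and bone, had 4.87, 4.38 and 4.17 CPM in OTX2 knockout libraries and 0.560, 0.423 and 0.431 CPM in control libraries. The groups were far apart, and the fold of 9.49 (log2 3.24 ± 0.15, SE; edgeR adjusted p = 3.61e-10) exceeded that of every other collagen called in the fit with all 6 libraries, though not that of COL22A1 when control replicate 1 was left out. COL1A1 (chromosome 17, 50183289 to 50201632, minus strand), its partner chain, had 9.31, 10.03 and 8.54 CPM in knockout libraries and 4.15, 4.34 and 4.76 CPM in control libraries. It rose 2.10-fold without overlap (log2 1.07 ± 0.09, SE; edgeR adjusted p = 1.76e-07).

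The chains of type I trimers came closer in level. The COL1A1 to COL1A2 ratio per kilobase was 2.17, 2.60 and 2.33 in OTX2 knockout libraries and 8.43, 11.6 and 12.5 in control libraries. The absolute ratio depends on the annotated exon lengths, which are the same in every library. COL5A1 and COL5A2, the type V chains that nucleate type I fibrils and limit their width, followed. COL5A1 had 1.16, 1.21 and 1.26 CPM in knockout libraries and 0.451, 0.474 and 0.638 CPM in control libraries, a 2.33-fold rise (log2 1.22 ± 0.19, SE; edgeR adjusted p = 0.00012). COL5A2 had 2.75, 2.49 and 2.59 CPM in knockout libraries and 1.08, 1.44 and 1.44 CPM in control libraries, a 1.97-fold rise (log2 0.98 ± 0.14, SE; edgeR adjusted p = 4.9e-05). Neither gene's groups overlapped. COL3A1, a fibrillar chain of distensible tissues, was not tested, and neither were COL5A3 and COL24A1.

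The cartilage-type fibrillar genes were far more abundant and fell. COL2A1 had 168, 172 and 166 CPM in OTX2 knockout libraries and 219.9, 248 and 239 CPM in control libraries (log2 fold change -0.48 ± 0.05, SE; edgeR adjusted p = 2.4e-06). COL11A1, whose chain is built into type II fibrils, had 42.1, 44.6 and 46.9 CPM in knockout libraries and 72.4, 66.9 and 67.4 CPM in control libraries (log2 fold change -0.63 ± 0.05, SE; edgeR adjusted p = 2.23e-07). COL27A1, a fibrillar chain of growing cartilage, had 62.7, 59.9 and 64.9 CPM in knockout libraries and 102.5, 97.9 and 91.7 CPM in control libraries (log2 fold change -0.64 ± 0.05, SE; edgeR adjusted p = 1.61e-07). All 3 were lower in every knockout library than in any control, by 1.40-fold for COL2A1, 1.55-fold for COL11A1 and 1.56-fold for COL27A1. COL11A2, another type XI chain, averaged 1.66 ± 0.143 CPM in knockout and 1.34 ± 0.131 CPM in control cultures (SD, n = 3 each). Its ranges did not overlap, but it was not called (log2 fold change 0.30 ± 0.14, SE; edgeR adjusted p = 0.113). Summed over types I, III and V, the level was 17.7 ± 0.912 CPM in knockout and 6.76 ± 0.518 CPM in control cultures, and over types II, XI and XXVII it was 278 ± 2.41 CPM in knockout and 403 ± 9.42 CPM in control cultures (SD, n = 3 each).

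FACIT genes moved both ways. Of 10 genes 8 were tested, 4 rose, 2 fell and 2 were not called, where 21.2% of all tested genes rose and 18.5% fell. COL22A1, 1 of the 4 that rose, passed the filter only through the knockout libraries. COL16A1 (chromosome 1, 31652247 to 31704319, minus strand), found in cartilage and at the dermal junction, had 5.86, 7.73 and 5.48 CPM in OTX2 knockout libraries and 1.17, 1.46 and 0.975 CPM in control libraries. COL12A1, which decorates type I fibrils of tendon and ligament, had 12.9, 11.7 and 12.6 CPM in knockout libraries and 4.75, 4.35 and 4.95 CPM in control libraries. The groups were apart for both genes, with folds of 5.29 for COL16A1 (log2 2.39 ± 0.16, SE; edgeR adjusted p = 2e-08) and 2.64 for COL12A1 (log2 1.40 ± 0.08, SE; edgeR adjusted p = 2.61e-09). COL14A1, a close relative of COL12A1, averaged 1.03 ± 0.0771 CPM in knockout and 0.597 ± 0.0352 CPM in control cultures (SD, n = 3 each), a 1.73-fold rise (log2 0.79 ± 0.18, SE; edgeR adjusted p = 0.0028). COL22A1, a collagen of tissue junctions such as that of muscle and tendon, had 0.408, 0.356 and 0.537 CPM in knockout libraries and 0.108, 0.0339 and 0.0188 CPM in control libraries. It rose without overlap (log2 2.97 ± 0.45, SE; edgeR adjusted p = 9.59e-05), on 82 counts in knockout and 9 counts in control libraries, and the control libraries were near the level of 3 counts. Without control replicate 1, which had the highest control level, the log2 fold change was 3.92, and it ranged between 2.59 and 3.08 with any other library left out.

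COL19A1 and COL9A1 were the FACIT genes that fell. COL19A1, made by neurons and found in the basement membrane zone, had 57.4, 60.3 and 67.8 CPM in OTX2 knockout libraries and 77.2, 70.4 and 68.0 CPM in control libraries. Knockout replicate 3 came within 1 CPM of control replicate 3, and the log2 fold change of -0.22 ± 0.06 (SE; edgeR adjusted p = 0.0135) was no longer called without knockout replicate 1 (edgeR adjusted p = 0.0878), without knockout replicate 2 (edgeR adjusted p = 0.0637) or with library totals as the only scaling (edgeR adjusted p = 0.103). COL19A1 also overlaps LMBRD1 in the annotation, and how shared reads were assigned is not given, so its level is uncertain. COL9A1, a chain of the type IX trimers on cartilage fibrils, had 0.377, 0.307 and 0.411 CPM in knockout libraries and 0.632, 0.898 and 0.825 CPM in control libraries. It was 2.15-fold lower in knockout without overlap (log2 fold change -1.10 ± 0.23, SE; edgeR adjusted p = 0.00159). Its partner chains were not called: COL9A2 averaged 0.736 ± 0.128 CPM in knockout and 0.501 ± 0.0944 CPM in control cultures (edgeR adjusted p = 0.0676), and COL9A3 12.1 ± 0.694 CPM in knockout and 11.1 ± 1.14 CPM in control cultures (edgeR adjusted p = 0.241; SD, n = 3 each). COL9A2 was called higher without knockout replicate 1 (edgeR adjusted p = 0.0483) and with library totals alone (edgeR adjusted p = 0.0401). COL9A3 overlaps TCFL5, so its level is uncertain as well.

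Transmembrane collagens gave 1 rise and 1 fall among 2 tested of 4, where 21.2% of all tested genes rose and 18.5% fell. COL25A1 (chromosome 4, 108808725 to 109302752, minus strand) had 372, 377 and 404 CPM in OTX2 knockout libraries and 646, 598 and 593 CPM in control libraries. Every knockout library lay below every control, and the level was 1.59-fold lower in knockout (log2 fold change -0.67 ± 0.05, SE; edgeR adjusted p = 7.44e-08). Its share of all collagen CPM was 26.5 ± 0.968% in knockout and 33.2 ± 1.33% in control cultures (SD, n = 3 each). COL23A1 averaged 5.66 ± 0.669 CPM in knockout and 4.01 ± 0.214 CPM in control cultures (SD, n = 3 each) and rose 1.41-fold (log2 0.50 ± 0.10, SE; edgeR adjusted p = 0.00124).

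The remaining families held few detected members. COL7A1, the anchoring fibril collagen that fastens epidermis to dermis, had 16.3, 13.3 and 13.5 CPM in OTX2 knockout libraries and 8.03, 8.96 and 9.77 CPM in control libraries. The groups were apart, with a 1.61-fold rise (log2 0.69 ± 0.09, SE; edgeR adjusted p = 2.3e-05). COL6A1, a chain of the beaded type VI microfibrils around cells, had 0.283, 0.323 and 0.268 CPM in knockout libraries and 0.144, 0.0169 and 0.150 CPM in control libraries. Its groups were apart but its rise (log2 1.501 ± 0.45, SE; edgeR adjusted p = 0.0155) rested on 55 counts in knockout and 17 counts in control libraries. Without control replicate 2, the low one, the log2 fold change was 0.97 (edgeR adjusted p = 0.0676), and without knockout replicate 2 the edgeR adjusted p was 0.0506. COL6A3, another type VI chain, averaged 0.339 ± 0.0568 CPM in knockout and 0.235 ± 0.0832 CPM in control cultures (edgeR adjusted p = 0.203), and COL26A1 0.743 ± 0.198 CPM in knockout and 0.782 ± 0.224 CPM in control cultures (edgeR adjusted p = 0.863; SD, n = 3 each). COL8A1 and COL8A2, the network-forming chains of vessel walls and corneal endothelium, were not called. COL8A1 averaged 1.25 ± 0.240 CPM in knockout and 1.53 ± 0.351 CPM in control cultures (edgeR adjusted p = 0.225), and COL8A2 2.40 ± 0.284 CPM in knockout and 2.36 ± 0.416 CPM in control cultures (edgeR adjusted p = 0.943; SD, n = 3 each).

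The 14 untested genes had between 3 and 48 counts each over the 6 libraries. They were COL3A1, COL5A3 and COL24A1 among fibrillar genes, COL6A2, COL6A5, COL6A6 and COL28A1 among type VI and related genes, COL10A1 of the short-chain networks, the transmembrane COL13A1 and COL17A1, COL15A1 and COL18A1 of vessel-associated membranes, and the FACITs COL20A1 and COL21A1. COL10A1, the collagen of hypertrophic cartilage, had 9, 7 and 7 counts in OTX2 knockout libraries and 0 counts in each control library, which is at least 6.81-fold higher in knockout when the control group is set at 3 counts in all. It was named after its values were seen.

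Motifs were counted in the 250 bases before each RefSeq start site, on both strands, for the 32 collagen genes with a listed window, 44 windows in all. The core TAATCC, which OTX factors and other bicoid-type homeodomains bind, was in 0 of 44 collagen windows, in 5.62% of 35116 windows of all genes and in 4.53% of the 15866 windows of tested genes. CCAAT was in 27.3% of the collagen windows, 32% of all windows and 32.8% of those of tested genes. GGGCGG was in 54.5% of the collagen windows, which is above the 42.6% of all windows and below the 60.8% of those of tested genes. TATAAA was in 18.2% of the collagen windows, 10.7% of all windows and 6.17% of those of tested genes. The absence of a match says only that these letters are not in the window. COL1A1, COL1A2 and COL2A1 were among 12 genes for which no window was used.

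Genes that make, export, trim, anchor and remove collagen were read from 7 lists, of which 123 genes were in the table and 104 were tested. Of these 51 rose and 15 fell, against 62 and 9 with library totals as the only scaling. Over all tested genes 21.2% rose and 18.5% fell. Changes past 2-fold were found for 18 of the rises and 1 of the falls (MMP9), where 6.04% of all tested genes rose and 0.782% fell by that much. Of those 18 rises, 6 (ADAMTS2, CREB3L1, DCN, FAP, GPR56 and POSTN) reached the filter level only in knockout libraries, so that they were tested only because they were high there. In the same way MMP9 reached that level only in control libraries and was tested only because it was high there. Called genes made up 63.5% of the 104, against 39.7% of all tested genes. The lists share no gene with the collagen set, and their members were chosen with earlier results of these data known. Maturation in the endoplasmic reticulum gave 8 rises and 2 falls among 18 tested genes (55.6% called), with a median log2 fold change of 0.06. PPIB, a proline isomerase of procollagen, averaged 238 ± 19.1 CPM in OTX2 knockout and 171 ± 6.50 CPM in control cultures, and P4HB, a subunit of the prolyl hydroxylase, 545 ± 43.2 CPM in knockout and 436 ± 13.3 CPM in control cultures. FKBP14, another isomerase, rose to 14.98 ± 0.616 CPM in knockout, against 10.8 ± 0.458 CPM in control cultures. LEPREL2, a prolyl hydroxylase also named P3H3, fell to 46.6 ± 1.32 CPM in knockout, against 69.3 ± 0.740 CPM in control cultures (SD, n = 3 each). These 4 had the smallest adjusted p of their list, and the same rule chose the genes named from the other lists.

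Export gave 3 rises and 2 falls among 14 (median 0.07), and its 35.7% called was near the 39.7% of all tested genes. With library totals as the only scaling the same list gave 8 rises and 1 fall. SEC24D, a coat protein of procollagen carriers, averaged 2.93 ± 0.284 CPM in OTX2 knockout and 1.19 ± 0.197 CPM in control cultures. MIA3, the receptor that loads procollagen into carriers, averaged 163 ± 1.91 CPM in knockout and 142 ± 6.04 CPM in control cultures. CREB3L1, a factor that switches on secretory and type I collagen genes, had 71 counts in knockout and 16 counts in control libraries and passed the filter only through the knockout libraries. STX18, a fusion protein of the endoplasmic reticulum, fell to 50.8 ± 2.68 CPM in knockout, against 80.2 ± 1.71 CPM in control cultures, with a level that is uncertain because it overlaps other annotated genes.

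Cleavage and cross-linking gave 9 rises and 2 falls among 14 tested genes (78.6% called, against 39.7% of all tested genes, median 0.45). ADAMTS2, 1 of the rises, passed the filter only through the knockout libraries. BMP1, the protease that removes the C-terminal propeptides, averaged 22.2 ± 1.30 CPM in OTX2 knockout and 11.4 ± 0.560 CPM in control cultures, and its relative TLL1 2.69 ± 0.0508 CPM in knockout and 0.316 ± 0.0249 CPM in control cultures. LOXL4, a cross-linking lysyl oxidase, averaged 110.4 ± 16.0 CPM in knockout and 53.5 ± 3.43 CPM in control cultures, and TGM2, a transglutaminase whose locus overlaps RPRD1B, 3.62 ± 0.255 CPM in knockout and 0.308 ± 0.0465 CPM in control cultures (SD, n = 3 each). All 4 were called, with edgeR adjusted p of 2.01e-08 for BMP1, 1.63e-09 for TLL1, 1.15e-07 for LOXL4 and 3.71e-10 for TGM2.

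Degradation and its inhibitors gave 7 rises and 2 falls among 14 (64.3% called, against 39.7% of all tested genes, median 0.17). FAP, 1 of the rises, passed the filter only through the knockout libraries, and MMP9, 1 of the falls, only through the control libraries. MMP16, a membrane-bound metalloproteinase, averaged 22.3 ± 0.557 CPM in OTX2 knockout and 5.22 ± 0.434 CPM in control cultures, and MRC2, the receptor that takes up collagen fragments, 201 ± 3.86 CPM in knockout and 98.8 ± 2.94 CPM in control cultures. The inhibitors TIMP2 and TIMP3 went opposite ways: TIMP2 averaged 38.7 ± 0.662 CPM in knockout and 22.6 ± 1.66 CPM in control cultures, and TIMP3 54.3 ± 4.64 CPM in knockout and 95.6 ± 2.01 CPM in control cultures. Each of the 4 was called, with edgeR adjusted p of 1.33e-11 for MMP16, 2.1e-10 for MRC2, 4.85e-08 for TIMP2 and 3.41e-08 for TIMP3. The inhibitors TIMP1 (edgeR adjusted p = 0.452) and RECK (edgeR adjusted p = 0.189) were tested and not called.

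Receptors gave 6 rises and 1 fall among 10 tested genes (70% called, against 39.7% of all tested genes, median 0.36). DDR2, a receptor kinase for fibrillar collagen, averaged 9.72 ± 0.483 CPM in OTX2 knockout and 6.20 ± 0.682 CPM in control cultures, CSPG4, a proteoglycan that binds type VI collagen, 31.7 ± 0.366 CPM in knockout and 23.6 ± 1.43 CPM in control cultures, and ITGA2, an integrin subunit for type I collagen, 4.86 ± 0.317 CPM in knockout and 3.76 ± 0.0669 CPM in control cultures. GPR56, a receptor for type III collagen in mouse cortex, had 130 counts in knockout and 3 counts in control libraries, and passed the filter only through the knockout libraries. Collagen-binding matrix proteins gave 11 rises and 1 fall among 15 (80% called, against the same 39.7%, median 0.58). SPARCL1 averaged 42.6 ± 0.917 CPM in knockout and 21.5 ± 1.69 CPM in control cultures, TNC 3.00 ± 0.370 CPM in knockout and 0.389 ± 0.0593 CPM in control cultures, and SPARC, a collagen chaperone of the matrix, 2.50 ± 0.170 CPM in knockout and 0.882 ± 0.104 CPM in control cultures. DCN, a proteoglycan that coats fibrils, had 94 counts in knockout and 9 counts in control libraries and likewise passed only through the knockout libraries. So did POSTN, another of the rises, with 44 counts in knockout and 0 counts in control libraries.

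Regulators of collagen transcription gave 7 rises and 5 falls among 19 tested genes (63.2% called, against 39.7% of all tested genes, median -0.05). With library totals as the only scaling they gave 7 rises and 2 falls. TGFB3, a ligand of the pathway that drives collagen synthesis in fibroblasts, averaged 16.8 ± 0.290 CPM in OTX2 knockout and 3.68 ± 0.289 CPM in control cultures, and SMAD7, a feedback inhibitor of that pathway, 3.96 ± 0.557 CPM in knockout and 1.31 ± 0.112 CPM in control cultures. SNAI2, a repressor active in mesenchymal cells, averaged 10.2 ± 0.503 CPM in knockout and 4.62 ± 0.508 CPM in control cultures. SMAD3, a signal transducer of the pathway, fell to 36.2 ± 2.87 CPM in knockout, against 52.9 ± 2.86 CPM in control cultures (SD, n = 3 each).

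**Figure D5:**
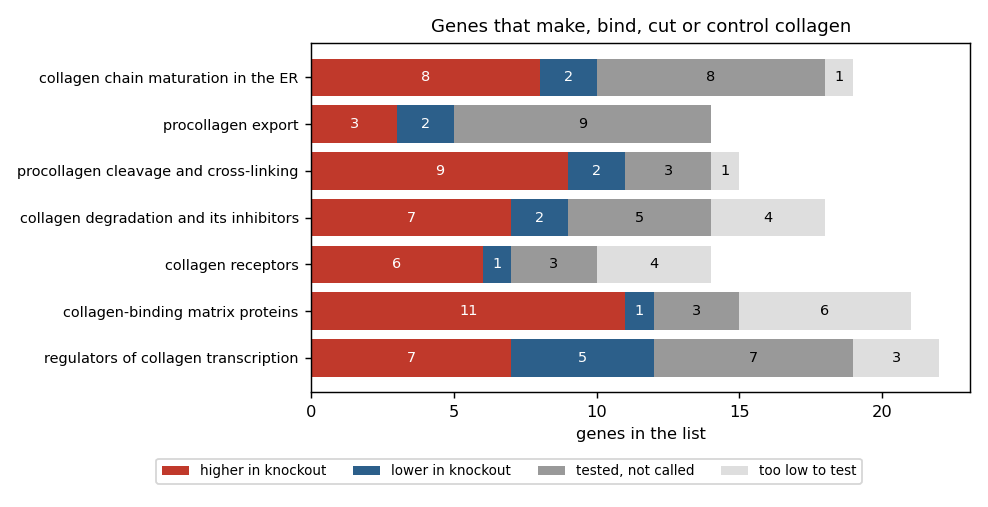
Number of genes called higher in OTX2 knockout, called lower, tested but not called, and too low to test, for each of the 7 collagen-related lists (bars, labelled with the counts). Collagen-binding matrix proteins have 11 rises and 1 fall of 15, and regulators of transcription have 7 rises and 5 falls of 19. Over all tested genes 21.2% rose and 18.5% fell.

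Markers of cells that make these collagens elsewhere were read beside them. The counts of each list stand against 21.2% of all tested genes that rose and 18.5% that fell. Fibroblast markers summed to 75.5 to 81.5 CPM in OTX2 knockout libraries and 52.6 to 55.7 CPM in control libraries, and of 6 tested of 10, 4 rose (DCN, FAP, FBLN1 and S100A4) and 0 fell. FBLN1 averaged 57.1 ± 3.32 CPM in knockout and 37.4 ± 1.66 CPM in control cultures, and S100A4 4.47 ± 0.405 CPM in knockout and 1.76 ± 0.145 CPM in control cultures. DCN and FAP passed the filter only through the knockout libraries, FAP with 154 counts in knockout and 7 counts in control libraries. Of the members not tested, LUM had 34 counts in knockout and 4 counts in control libraries, THY1 and PI16 had 2 counts each in knockout and 0 counts in control libraries, and DPT had 0 counts in all libraries. PDGFRA averaged 4.87 ± 0.383 CPM in knockout and 4.27 ± 0.279 CPM in control cultures, PDGFRB 10.03 ± 0.299 CPM in knockout and 10.6 ± 0.765 CPM in control cultures, and neither was called. Basal epithelial markers summed to 111 to 129.9 CPM in knockout libraries and 30.1 to 32.6 CPM in control libraries, with 5 rises and 0 falls among 6 tested. KRT5 passed the filter only through the knockout libraries, and TP63, KRT14 and DSG3 were at or near 0. Pericyte and smooth muscle markers summed to 159.8 to 163 CPM in knockout libraries and 154 to 161 CPM in control libraries, with 4 rises and 2 falls among 8. Endothelial markers summed to 8.46 to 9.50 CPM in knockout libraries and 7.98 to 9.74 CPM in control libraries, with 2 rises, 1 of them (PECAM1) a gene that passed only through the knockout libraries, and 1 fall among 4. The untested CDH5 had 31 counts in knockout and 0 counts in control libraries, CLDN5 24 and 8, and TIE1 12 and 2. TEK had 6 counts in knockout and 2 in control libraries, EMCN 3 in each group, and ERG 0 in all libraries. Cartilage and bone markers summed to 20.1 to 20.9 CPM in knockout libraries and 15.04 to 19.7 CPM in control libraries, with 1 rise (ALPL) among 3. Group 3 medulloblastoma markers summed to 4188 to 4723 CPM in knockout libraries and 5444 to 5771 CPM in control libraries. COMP, DCN, LUM, MATN1, FAP, SOX9, SP7 and CSPG4 stand both in a marker list and in a collagen-related list. The part of any of these cell types in the collagen result was not tested.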

How the data were processed

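Total RNA was sequenced from 6 D283 cultures. The authors deposited counts per gene, unnormalized, with 1 column per library. Per the submitters' processing notes, STAR and hg38 were used, and which counting program, annotation, strand setting or filter followed is not given in the sources used here. Reads shared by overlapping genes may therefore sit in either gene. The table held 50883 genes, of which 17682 had 0 counts in every library and 0 rows named no gene.

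Column names equal to sample titles placed each library, its labelled genotype gave the group, and replicates were numbered in accession order. Genes were filtered with filterByExpr, scaled with TMM and tested with edgeR 4.0.16 in R 4.3.3 (glmQLFit and glmQLFTest, 2-sided, 4 residual degrees of freedom, biological coefficient of variation 5.30%), with Benjamini-Hochberg adjustment over all 18420 tested genes and a threshold of 0.05. The fit was tested on simulated data. Gene positions and merged exon lengths came from GENCODE on GRCh38, and promoter windows from RefSeq GRCh38.p14.

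Alternatives were upper-quartile scaling, RLE size factors, library totals, no filter, 1 CPM in 3 libraries, limma 3.58.1, DESeq2 1.42.0, glmTreat against 1.5-fold, a threshold of 0.01 and each library left out. The collagen genes, the 13 gene lists (182 of 183 entries in the table, 7 under an older symbol) and the tests were chosen with earlier results of these data known. Every collagen is accounted for. Library values are given for collagens called with a log2 fold change of at least 1 in size and for the 8 highest by level, and up to 4 genes per list are named by smallest adjusted p. The floor of 3 counts allows for counting error alone, since reads that lack molecular identifiers can be copies of 1 molecule.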

Additional observations from a re-analysis of the deposited data

How the results depend on the processing

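No paired analysis was possible because the labels give the groups no shared replicate numbers. Over 15 alternatives, 18 of the 30 tested collagens kept their status, called or not called, wherever a value could be had. Among those 18, COL4A2, COL6A3, COL8A1, COL8A2, COL9A3, COL11A2 and COL26A1 were called in no setting. Another 9 lost their call only against 1.5-fold, 3 changed otherwise (COL6A1, COL9A2, COL19A1) and 0 reversed. COL6A1 was also lost with DESeq2 (adjusted p = 0.0576). COL10A1 was called with no filter and with DESeq2. With one replicate left out, the collagens gave 12 to 14 rises and 8 to 9 falls, against 13 and 9 with all. Library totals alone moved the median of all tested genes from 0.01 to 0.08, rises from 53.4% to 71.9% of all calls, and rises among the calls of the collagen-related genes from 77.3% to 87.3%.

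Against 1.5-fold the collagen falls numbered 2, not 9, and OTX2 (log2 fold change -0.22) was not called. The rises fell in number to 0 of 8 for maturation, 4 of 7 for degradation, 1 of 6 for receptors, 6 of 11 for matrix proteins, 5 of 9 for cleavage, 3 of 7 for regulators and 21 of 51 for all related genes, and the falls to 0 for maturation, receptors, matrix proteins, cleavage, export and regulators and to 1 for degradation and for all related genes. Library totals gave 1 fall for maturation, 0 for matrix proteins, 1 for export, 2 for regulators and 9 for all related genes, and 8 rises for export, against 3. Upper-quartile scaling gave 1 fall for maturation and export and 0 for matrix proteins. The filter at 1 CPM gave 1 fall for degradation and export and 0 for matrix proteins, DESeq2 1 for degradation and 0 for matrix proteins, and no filter 1 for export. The threshold of 0.01 gave 1 fall for maturation, degradation and export, 0 for matrix proteins, 3 for regulators and 9 for all related genes. With one replicate left out the falls numbered 1 to 3 for maturation, 1 to 2 for degradation, 0 to 1 for matrix proteins, 1 to 2 for export, 3 to 5 for regulators and 10 to 14 for all related genes. The cause of these differences was not tested. At these depths 14 collagens had too few counts to be tested.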

Other observations

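Collagen-named rows that the rule leaves out numbered 9, and 5 of them had 0 counts in all libraries. COL6A4P2, a pseudogene of a type VI chain, had 14.5, 13.0 and 12.1 CPM in OTX2 knockout libraries and 25.7, 22.4 and 26.5 CPM in control libraries. The groups did not overlap, and the log2 fold change was -0.91 ± 0.08 (SE; edgeR adjusted p = 2.42e-07). Its level exceeded that of every type VI gene tested, COL6A1 and COL6A3, in all libraries. COL4A3BP, which despite its symbol encodes a ceramide transfer protein, averaged 54.4 ± 1.69 CPM in knockout and 57.9 ± 2.65 CPM in control cultures (SD, n = 3 each) and was not called (edgeR adjusted p = 0.163). Both rows were chosen after their values were seen.

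SERPINH1, the collagen-specific chaperone of the endoplasmic reticulum, averaged 175 ± 7.36 CPM in OTX2 knockout and 190.03 ± 4.80 CPM in control cultures (SD, n = 3 each) and was not called (log2 fold change -0.12 ± 0.05, SE; edgeR adjusted p = 0.0535). It was named after its values were seen.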
